A study of Mus musculus with 196 samples.

Results

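Dorsal skin rich in fat cell transcripts was compared with dorsal skin poor in them, within mice of one age whose dorsal hair follicles were labelled as not growing. Back skin labelled as not in anagen, when follicles grow, gave 85 of the 196 arrays in the study. The groups were chosen by the mean log2 value of 4 genes of mature fat cells, Adipoq, Lep, Plin1 and Cidec, each read by its highest-mean probe set that named a single gene. The 21 highest arrays are called fat-rich, the 21 lowest fat-poor and the remaining 43 middle, so 42 arrays entered the comparison. The groups were therefore made from measured values and not from a treatment or a genotype.

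Every mouse was an untreated backcross animal: FVB/N females had been crossed with Mus spretus males, and the hybrid daughters were mated with FVB/N males. Each mouse carries its own mixture of the parental genomes, and the genotype at any locus was not used here. Skin was taken at 8 weeks of age and 1 ug of RNA was labelled per array, with the hair shaved from the dorsal piece before freezing. The arrays came from 100 mice, and the tail arrays of the 42 mice in the 2 groups served as samples that the ranking had not used.

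Dermal white fat forms a layer between the dermis and a thin sheet of striated muscle, the panniculus carnosus, and in mice it thickens when hair follicles grow and thins when they rest. Its cells store triglyceride in a lipid droplet coated by perilipins and CIDE proteins, release fatty acids by lipolysis, and secrete hormones such as adiponectin and leptin. A full-thickness piece of dorsal skin can hold all of these layers together with epidermis, follicles, vessels and immune cells.

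Adipoq, which encodes adiponectin, ranged from 7.19 to 9.30 with a median of 8.11 in fat-rich arrays and from 5.08 to 6.21 with a median of 5.51 in fat-poor arrays. Lep, the leptin gene, ranged from 4.92 to 9.09 with a median of 6.38 in fat-rich arrays and from 3.95 to 5.20 with a median of 4.53 in fat-poor arrays. Plin1, the main droplet coat protein of white fat cells, ranged from 7.38 to 9.24 with a median of 8.05 in fat-rich arrays and from 4.17 to 6.30 with a median of 5.34 in fat-poor arrays. Cidec, which enlarges droplets by fusing them, ranged from 7.63 to 10.16 with a median of 8.52 in fat-rich arrays and from 4.84 to 6.25 with a median of 5.74 in fat-poor arrays. Adipoq, Plin1 and Cidec separated the groups completely, while for Lep 1 fat-rich array lay within the fat-poor range. These values chose the groups and carry no test. The mean of the 4 genes was 7.14 to 9.17 in fat-rich arrays and 4.80 to 5.52 in fat-poor arrays. The last array inside the fat-rich group had 7.14 and the first outside it 7.09, and at the lower edge the values were 5.5185 inside and 5.5215 outside the fat-poor group, so both edges cut a continuous spread. Over the 85 arrays the 4 genes correlated with each other at Pearson r between 0.811 (Adipoq and Lep) and 0.942 (Plin1 and Cidec), as a description of values that share arrays.

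The labels did not separate the groups. There were 9 females and 12 males in each group (Fisher's exact test, 2-sided, p = 1), and batch 2 gave 2 of 21 fat-rich and 3 of 21 fat-poor arrays (p = 1). The 5 arrays of the comparison that were least like the other non-anagen dorsal arrays were all fat-rich, with a median correlation to them of 0.954 to 0.967 against 0.977 for the typical array. Results are given without these 5 where it matters. The 14 dorsal arrays labelled as anagen, not in the comparison, had a mean of the 4 genes of 5.41 to 8.69, which spans both groups.

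The promoters of Lep and Plin1 are shown because their genes made the ranking and because each window holds the letters TTGCNNAA, a core bound by C/EBP factors, which drive the last steps of fat cell formation. The sequences are the 250 bases before the RefSeq start (GRCm38.p6), in lower case with the matches in capitals, for Lep at chr6:29059971-29060220 on the plus strand and for Plin1 at chr7:79732777-79733026 on the minus strand.
Lep: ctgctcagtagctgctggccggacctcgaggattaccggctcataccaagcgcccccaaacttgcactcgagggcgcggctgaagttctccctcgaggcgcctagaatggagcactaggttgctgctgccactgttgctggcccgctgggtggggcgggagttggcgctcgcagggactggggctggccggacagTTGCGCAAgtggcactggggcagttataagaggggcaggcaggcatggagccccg
Plin1: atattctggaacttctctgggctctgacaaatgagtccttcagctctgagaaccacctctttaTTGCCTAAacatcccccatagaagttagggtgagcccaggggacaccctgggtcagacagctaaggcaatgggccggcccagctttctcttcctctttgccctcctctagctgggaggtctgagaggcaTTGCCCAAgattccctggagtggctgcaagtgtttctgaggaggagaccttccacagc
The Lep match, TTGCGCAA, reads the same on both strands and lies at -55 to -48 from the start. Plin1 has TTGCCTAA at -187 to -180 and TTGCCCAA at -58 to -51. The letters TTGCNNAA were searched on both strands and occurred in 9.56% of 32851 RefSeq promoter windows of this length. A fat cell set joined the ranking genes with the lists of secreted products, lipid droplet, triglyceride synthesis and fatty acid uptake used below. Its 55 windows came from 40 genes, and 6 of the windows had a match (10.9%). Of these 6, 3 were among the 5 windows of the ranking genes. The share of the whole set was close to that of all windows, and the other fat cell lists were not searched. A match is a stretch of letters and was not tested for binding.

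**Figure D1:**
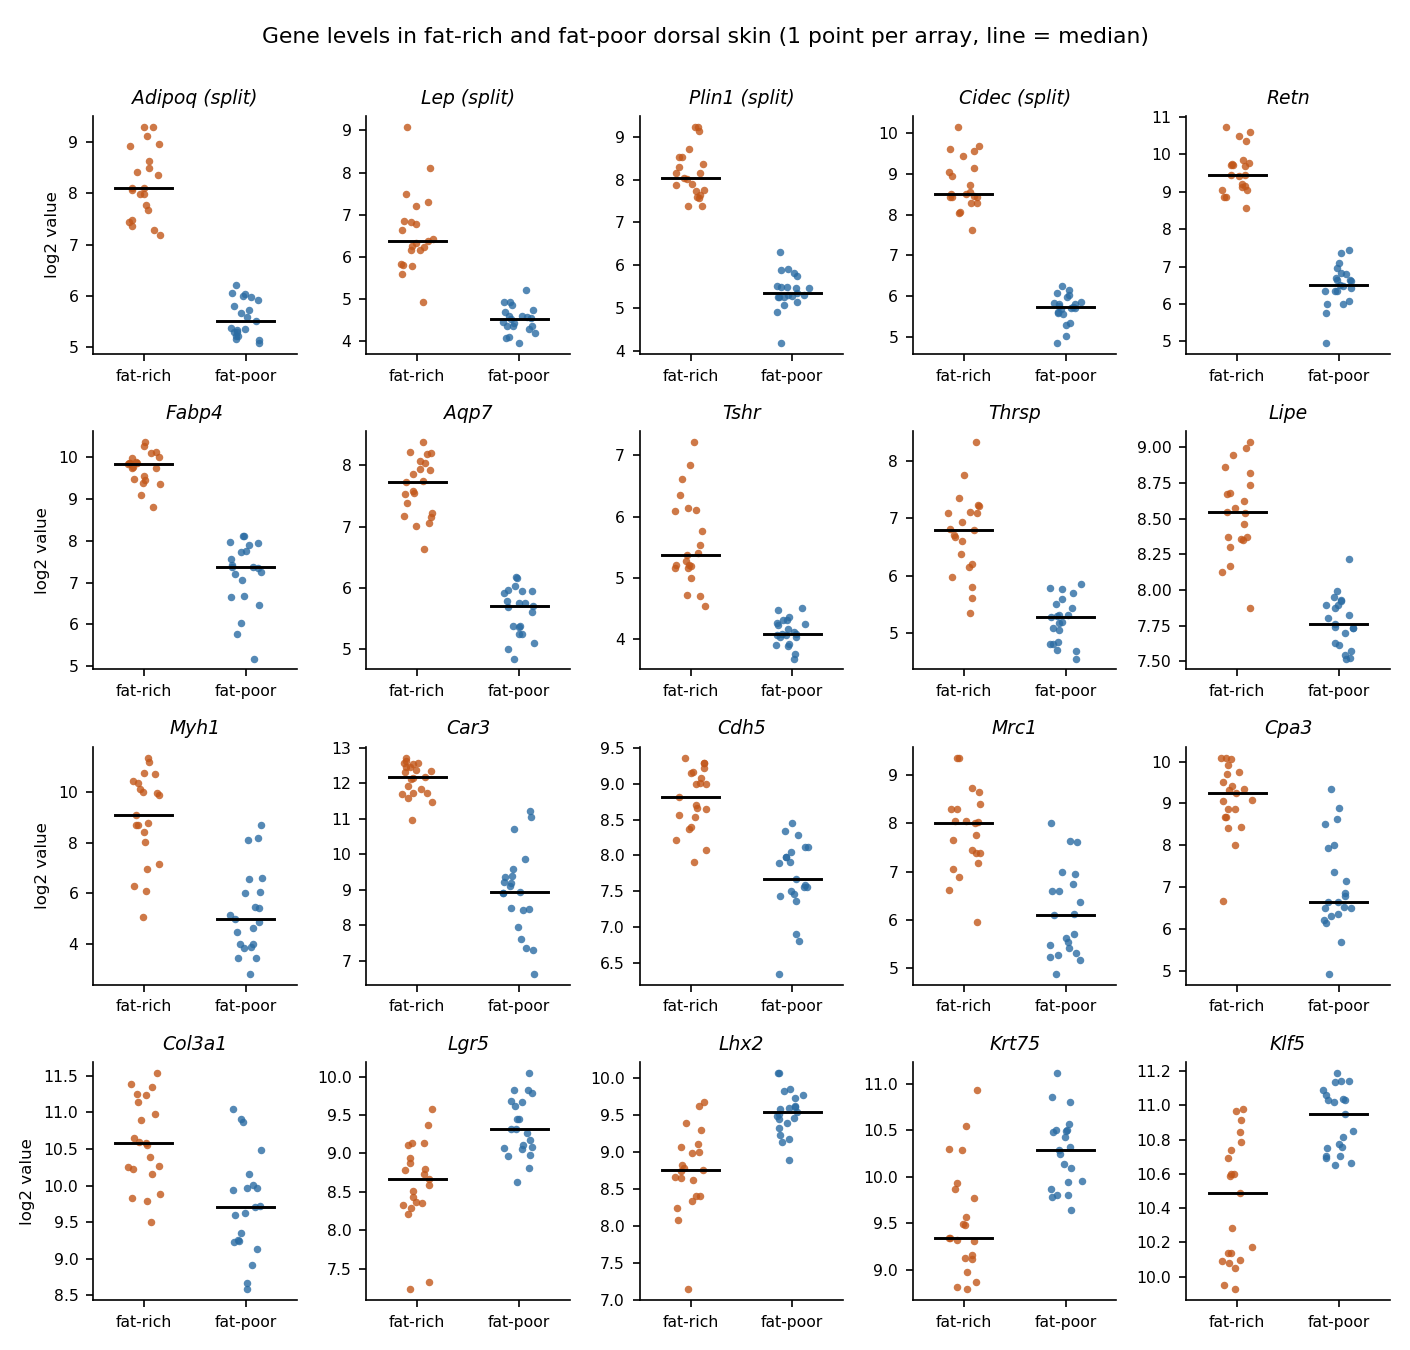
Log2 values of 20 genes in the 21 fat-rich (left) and 21 fat-poor (right) dorsal arrays, 1 point per array with the median as a line. Retn, Fabp4, Aqp7 and Tshr had no overlap between the groups although they took no part in the ranking, whereas Myh1 spread from 5.06 to 11.36 in fat-rich arrays and reached 8.69 in fat-poor arrays.

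Across the other 18816 genes, 1614 were higher (8.58%) and 1993 lower (10.6%) in fat-rich dorsal skin (limma with sex and batch as covariates, Benjamini-Hochberg adjusted p under 0.05). Shifting each array to the same median and ranking the arrays again kept 20 of 21 fat-rich and 18 of 21 fat-poor arrays. The counts were then 1449 higher and 3195 lower, so that 31.2% of calls were higher, against 44.7% without the shift. Differences of at least 0.5 on the log2 scale were far less balanced, with 733 genes higher (3.9%) and 119 lower (0.632%). The median difference over all genes was -0.02, the value to set beside the list medians given here. These genes were read on the same arrays as the ranking genes, so a call says how closely a gene went with them. Without the 5 least typical arrays the counts were 1287 higher (6.84%) and 946 lower (5.03%), so the lower count moved more. Fewer arrays also leave fewer small differences called, and the part of each was not tested. Skeletal muscle genes moved with the groups too, 22 of 25 being higher. Their mean was 5.97 to 10.40 in fat-rich and 4.97 to 8.28 in fat-poor arrays. The 5 least typical arrays had muscle means of 10.40, 9.96, 9.48, 8.77 and 7.32, against a fat-rich median of 8.56. Fits that take this mean into account follow the single lists. In bulk skin, fewer cells of a type and less RNA per cell cannot be told apart.

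In 6 genes outside the ranking every fat-rich array exceeded every fat-poor array, 0.0319% of those tested, and no gene showed the reverse. They were Retn, Fabp4, Aqp7, Hp, Mlxipl and Tshr. In the 43 middle arrays the slope on the same score had the sign of the contrast for 3305 of the 3607 called genes. The score and the genes were again read on the same arrays, so this describes association and is no independent check. The share of matching signs over all genes was not computed. In these middle arrays 30 genes were called higher (0.159%) and 4 lower (0.0213%), with 3058 genes at an unadjusted p under 0.05.

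Secreted products of fat cells had 9 of 12 measured members higher and none lower, with a median of 0.40 (6 higher without the 5 least typical arrays, which left Adig, Sparcl1 and Nampt uncalled). Retn encodes resistin, a hormone that white fat cells secrete in mice. It ranged from 8.55 to 10.74 with a median of 9.46 in fat-rich arrays and from 4.95 to 7.43 with a median of 6.50 in fat-poor arrays. The difference of 3.10 ± 0.16 (SE, adjusted p = 1.47e-18) was an 8.55-fold higher level, and the 21 fat-rich arrays all lay above the fat-poor ones. Lpl, the lipase that frees fatty acids from circulating triglyceride, ranged from 8.82 to 10.49 with a median of 9.61 in fat-rich arrays and from 6.86 to 8.93 with a median of 7.90 in fat-poor arrays. It rose by 1.73 ± 0.15 (SE, adjusted p = 1.29e-11), and 20 of 21 fat-rich arrays lay above every fat-poor array. Rbp4, the plasma carrier of retinol, was higher by 1.44 (medians 6.61 in fat-rich and 5.12 in fat-poor arrays), and the imprinted gene Nnat by 1.35 (medians 6.44 and 5.07). Among members that were not called, the acute phase gene Orm1 differed by 0.04 and the antimicrobial peptide gene Camp by 0.09.

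Genes of the lipid droplet and of lipolysis had 7 of 15 members higher and none lower, with a median of 0.32. Lipe, hormone-sensitive lipase, ranged from 7.88 to 9.04 with a median of 8.55 in fat-rich arrays and from 7.52 to 8.22 with a median of 7.76 in fat-poor arrays. Its rise of 0.77 ± 0.08 (SE, adjusted p = 6.31e-10) was modest in size, yet 18 of 21 fat-rich arrays exceeded every fat-poor array. The droplet coat protein Plin4 rose by 0.80 and the caveolar protein Cavin2 by 0.78. Pnpla2, which takes the first fatty acid off stored triglyceride, rose by 0.45. Fitm1, a droplet protein best known from striated muscle, had the list's highest difference, 1.57 ± 0.28 (SE). The droplet genes that sebaceous cells also use did not pass the test: Plin2 differed by 0.20 and Cidea by 0.18.

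Triglyceride synthesis had 5 of 11 members higher and none lower, with a median of 0.18. Aqp7, the channel through which fat cells move glycerol, ranged from 6.64 to 8.38 with a median of 7.72 in fat-rich arrays and from 4.85 to 6.18 with a median of 5.70 in fat-poor arrays. The groups did not overlap and differed by 2.03 ± 0.12 (SE, adjusted p = 2.42e-16), a 4.09-fold higher level. Pck1, which supplies the glycerol backbone from smaller precursors, rose by 1.22, Gpd1, which makes glycerol 3-phosphate, by 1.14, and the phosphatidate phosphatase Lpin1 by 0.60. The acyltransferase Agpat2 completed the list's calls at 0.41. For the final step of the pathway, Dgat1 differed by 0.18 and Dgat2 by -0.15, and neither passed.

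Fatty acid uptake and binding had 4 of 10 members higher, and its median of 0.06 became -0.007 when each array was shifted to the same median. Fabp4, the fatty acid carrier of fat cells, ranged from 8.81 to 10.36 with a median of 9.84 in fat-rich arrays and from 5.18 to 8.11 with a median of 7.36 in fat-poor arrays. Without overlap between the groups it rose by 2.58 ± 0.16 (SE, adjusted p = 5.09e-16). Cd36, the fatty acid transporter, rose by 0.99, Gpihbp1, which holds Lpl on capillaries, by 0.87, and the muscle carrier Fabp3 by 0.71. Fabp5, the carrier of keratinocytes, differed by 0.08 and was not called.

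Of 14 measured members of fatty acid synthesis 1 was called higher, close to the 8.58% over all genes, with a list median of 0.08. That member was Thrsp, a nuclear regulator of lipid synthesis, which ranged from 5.35 to 8.32 with a median of 6.79 in fat-rich arrays and from 4.55 to 5.85 with a median of 5.27 in fat-poor arrays and differed by 1.49 ± 0.17 (SE, adjusted p = 2.26e-08). Pyruvate carboxylase Pcx differed by 0.30, the citrate carrier Slc25a1 by 0.21 and the desaturase Scd2 by 0.14, none past the threshold, though Pcx passed without the 5 least typical arrays. Fasn, fatty acid synthase, had medians of 10.67 in fat-rich and 10.62 in fat-poor arrays, and Scd1 of 12.63 and 12.64.

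Adipogenic transcription factors had 7 of 14 members higher and 1 lower, with a median of 0.24. Mlxipl, the carbohydrate-sensing factor ChREBP, ranged from 5.78 to 7.20 with a median of 6.23 in fat-rich arrays and from 4.86 to 5.77 with a median of 5.34 in fat-poor arrays. The groups did not overlap, with a difference of 0.93 ± 0.10 (SE, adjusted p = 4.17e-09). The early B cell factors Ebf1 and Ebf2, which act in fat cell precursors and fat cells, rose by 0.95 and 0.79, and Pparg, the master regulator of fat cell identity, rose by 0.48. Klf5, a factor of both fat cell precursors and basal epithelium, fell by 0.48 to a median of 10.49 in fat-rich arrays, against 10.95 in fat-poor arrays. Cebpa, with medians of 9.51 in fat-rich and 9.47 in fat-poor arrays, was not called.

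Receptors of fat cells had 5 of 8 members higher and none lower, with a median of 0.41. Ptger3, a prostaglandin receptor that restrains lipolysis, rose by 0.97 ± 0.11 (SE, adjusted p = 1.09e-08), with 19 of 21 fat-rich arrays above every fat-poor array. Npr3, the clearance receptor for natriuretic peptides, rose by 0.70, the lactate receptor Hcar1 by 0.48 and the growth hormone receptor Ghr by 0.42. Tshr, the thyrotropin receptor, named after its values were seen, ranged from 4.54 to 7.22 with a median of 5.37 in fat-rich arrays and from 3.67 to 4.50 with a median of 4.08 in fat-poor arrays, a difference of 1.50 ± 0.15 (SE). Insulin response and glucose uptake had 3 of 9 members higher and 1 lower, with a median of 0.06. Pde3b, through which insulin curbs lipolysis, rose by 1.12, Trarg1, which acts on transport vesicles of the insulin-sensitive glucose carrier, by 1.02, and the carrier itself, Slc2a4, by 0.92. The insulin receptor gene Insr fell by 0.20, a call lost without the 5 least typical arrays, while the adaptor gene Grb14 (0.26) was called when they were left out. None of 13 genes of branched-chain amino acid breakdown was called, and the largest differences were 0.18 for Mccc2, called without the 5 least typical arrays, and 0.18 for Aldh6a1.

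Among brown fat genes 4 of 10 were higher, with a median of 0.22, but the defining gene Ucp1 was not among them, with medians of 3.90 in fat-rich and 3.93 in fat-poor arrays. The called members were Cox8b (2.00) and Cox7a1 (1.79), subunits of cytochrome c oxidase that striated muscle also uses, Ppargc1a (0.40) and Otop1 (0.27). The last pair lost the call without the 5 least typical arrays. Zic1, a factor of brown fat and of dorsal dermis, differed by 0.57 (adjusted p = 0.0513). Genes of fat cell precursors had 5 of 11 members higher and none lower, with a median of 0.27. Pdgfra, a receptor of fibroblasts and precursors, ranged from 6.22 to 8.79 with a median of 8.22 in fat-rich arrays and from 5.70 to 8.18 with a median of 6.90 in fat-poor arrays and rose by 1.10. Pdgfrb rose by 0.94, Pi16 by 0.66 and the proteoglycan Dcn by 0.57. Cd34 and Dlk1, 2 further precursor genes, differed by 0.04 and -0.15 and were not called.

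Several of the largest differences lay outside these lists. Hp, haptoglobin, which liver and fat secrete, ranged from 6.68 to 9.69 with a median of 8.27 in fat-rich arrays and from 4.51 to 6.45 with a median of 5.74 in fat-poor arrays. Its groups did not overlap and differed by 2.67 ± 0.20 (SE, adjusted p = 1.03e-13). Car3, the carbonic anhydrase of fat cells and muscle, ranged from 10.96 to 12.73 with a median of 12.17 in fat-rich arrays and from 6.62 to 11.23 with a median of 8.94 in fat-poor arrays, and rose by 3.24 ± 0.24 (SE, adjusted p = 1.91e-13). The cytochrome P450 Cyp2e1 rose by 2.70. Of genes chosen after their values were seen, the cysteine dioxygenase Cdo1 was higher by 1.88, transferrin (Trf) by 1.86, the amine oxidase Aoc3 by 1.43, the activin-family receptor Acvr1c by 1.10, the growth factor Igf1 by 1.15 and the imprinted gene Mest by 1.08. Milk protein genes were read as markers of mammary tissue under the skin. Csn2 differed by 0.09 and Csn3 by 0.11, neither called, and Wap by 0.25, with medians of 4.89 in fat-rich and 4.61 in fat-poor arrays, a call lost without the 5 least typical arrays, while the glandular keratins Krt8 and Krt18 differed by -0.09 and -0.06 and were not called.

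Skeletal muscle genes had the largest median difference of the 33 lists examined. Of 25 members 22 were higher and none lower, with a list median of 2.53. Myh1, a heavy myosin chain of fast fibres, ranged from 5.06 to 11.36 with a median of 9.09 in fat-rich arrays and from 2.81 to 8.69 with a median of 4.97 in fat-poor arrays. Among genes above the median level its difference was the largest, 3.75 ± 0.48 (SE, adjusted p = 2.88e-07), but 8 fat-rich arrays lay within the fat-poor range. The fast calcium pump Atp2a1 rose by 3.26, the light chain Myl1 by 3.36, the giant filament gene Neb by 3.23 and fast troponin Tnnt3 by 3.19. Parvalbumin (Pvalb), which buffers calcium in fast fibres, rose by 3.11 and myoglobin (Mb) by 2.92. The 3 members that were not called were the slow myosin Myh7, the slow and cardiac troponin Tnnc1 and the perinatal myosin Myh8. Myh7 had medians of 4.72 in fat-rich and 4.66 in fat-poor arrays, and Tnnc1 of 4.87 and 4.85. The fast myosins Myh2 and Myh4 rose by 2.13 and 2.64, so among the adult myosins those of fast fibres were called and that of slow fibres was not. The medians of Myh7 and Tnnc1 lay below the median of all gene levels (6.49) in both groups. Their lack of a call therefore says little about slow fibres.

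The muscle genes overlapped between the groups. The mean of the 25 muscle genes ran from 5.97 to 10.40 with a median of 8.56 in fat-rich arrays, and from 4.97 to 8.28 with a median of 5.80 in fat-poor arrays. Every fat-rich array was above the fat-poor median, 12 of 21 were above the highest fat-poor array, and 14 of 21 fat-poor arrays were below the lowest fat-rich array. Over the 85 arrays the muscle mean and the mean of the 4 fat genes correlated at Pearson r = 0.564 and Spearman rho = 0.62, with r = 0.458 in the 41 females, 0.682 in the 44 males, 0.562 within batch 1 and 0.612 without the 2 arrays farthest from the fat median. It was 0.372 in the 43 middle arrays, -0.134 within the 21 fat-rich arrays and 0.367 within the 21 fat-poor arrays. These are descriptions across arrays that share RNA between both measures. The array with the highest fat mean, 9.17, had the lowest muscle mean of the fat-rich group, 5.97.

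**Figure D2:**
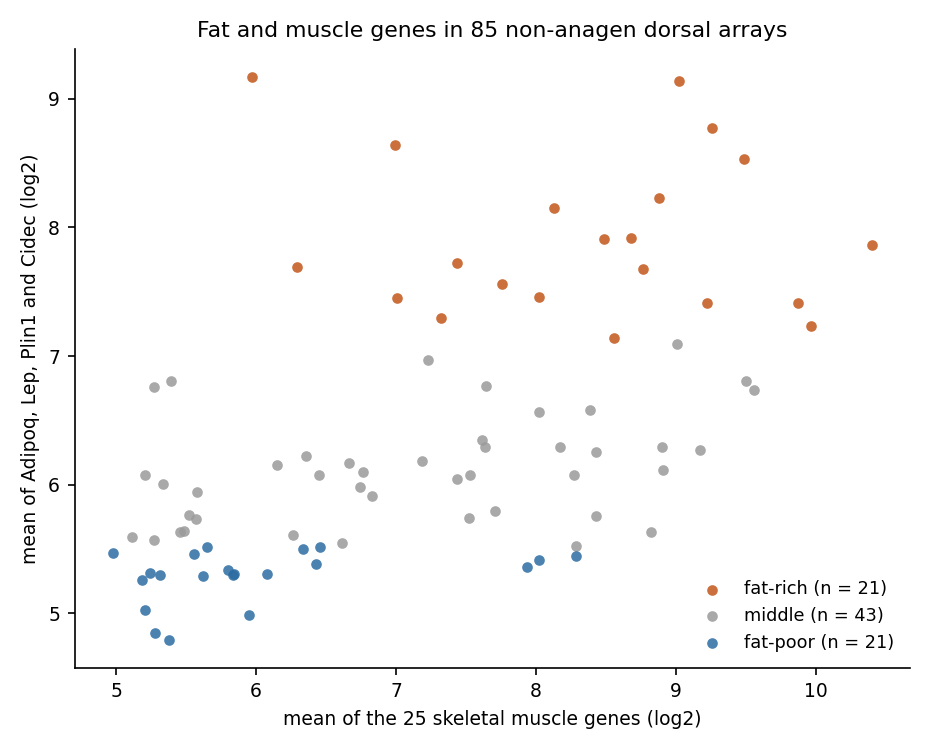
Mean log2 value of Adipoq, Lep, Plin1 and Cidec (vertical) against the mean of 25 skeletal muscle genes (horizontal) in the 85 non-anagen dorsal arrays, coloured as fat-rich (21), middle (43) and fat-poor (21). Fat-rich arrays spread from 5.97 to 10.40 in muscle, and 3 fat-poor arrays lie apart from the rest above 7.

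The comparison was therefore also fitted with the muscle mean as a further covariate. It left 153 genes higher (0.813%) and 17 lower (0.0903%), of which 161 had been called in the same direction without it, and the median SE grew to 0.133, against 0.0855. Of the 1614 genes called higher without it 1447 kept a positive difference, and of the 1993 called lower 1944 kept a negative one. Of the fat cell genes named above, Retn was then higher by 2.60 (adjusted p = 8.74e-10), Fabp4 by 2.34, Aqp7 by 1.75 and Hp by 2.31. Tshr was higher by 1.60 (adjusted p = 4.07e-05) and Lipe by 0.84 (adjusted p = 2.52e-05). Members still called numbered 4 of 12 for secreted products, 3 of 15 for the droplet, 2 of 11 for triglyceride synthesis, 3 of 8 for receptors, and 0 of 10 for brown fat and 0 of 11 for precursors. Among genes that striated muscle also uses, Fitm1 was at -0.28 (adjusted p = 0.676) and Cox8b at -0.25 (adjusted p = 0.758). Both were reversed in sign and neither was called. Cox7a1 was at 0.03, Slc2a4 at 0.09 and Fabp3 at 0.08, while Car3 kept 2.09 (adjusted p = 3.88e-05). The muscle mean differed between the groups, and the tissue that a transcript came from was not tested. With both measures fitted over all 85 arrays, 1732 genes rose (9.2%) and 1807 fell (9.6%) with the fat mean. Members called higher were then 9 of 12 for secreted products, 7 of 15 for the droplet, 6 of 11 for triglyceride synthesis, 5 of 8 for receptors, 2 of 10 for brown fat (with 1 lower) and 7 of 11 for precursors.

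The promoter of Acta1, skeletal actin, is shown as an example of the muscle genes (adjusted p = 1.14e-07, difference 2.95). The 250 bases before its RefSeq start lie at chr8:123894776-123895025 on the minus strand of GRCm38.p6, with an E-box CAGCTG at -221 to -216, a core bound by MyoD-type factors, and the TATA box letters TATAAA at -7 to -2 in capitals.
Acta1: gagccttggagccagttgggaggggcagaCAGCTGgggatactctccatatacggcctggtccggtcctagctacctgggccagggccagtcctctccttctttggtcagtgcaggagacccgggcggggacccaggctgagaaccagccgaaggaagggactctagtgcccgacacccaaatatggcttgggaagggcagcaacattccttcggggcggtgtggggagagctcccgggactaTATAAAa
The 25 promoter windows of the muscle list came from 21 of its genes. On both strands, CAGCTG occurred in 40% of these windows, 13% of all windows and 16.4% of the fat cell windows. It was also in 2 of the 5 windows of the ranking genes. For TATAAA the shares of muscle, all and fat cell windows were 20%, 12.4% and 3.64%. A MEF2 site, bound by another family of muscle factors, occurred in 4.0%, 3.2% and 1.82%. The TTGCNNAA letters were found in 24.0% of the muscle windows, a larger share than the 10.9% of the fat cell windows. No motif of this search overlapped another in the 3 windows printed.

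Vessel genes were higher in fat-rich skin throughout. All 13 blood endothelial genes rose, with a median of 0.75, and 12 of them did so without the 5 least typical arrays, which left Vwf uncalled. Cdh5, the junction cadherin of endothelium, ranged from 7.90 to 9.37 with a median of 8.82 in fat-rich arrays and from 6.34 to 8.45 with a median of 7.68 in fat-poor arrays. It rose by 1.11 ± 0.13 (SE, adjusted p = 3e-08), with 16 of 21 fat-rich arrays above every fat-poor array. Pecam1 rose by 0.93, the VEGF receptor Kdr by 0.90 and the tight junction gene Cldn5 by 0.82. The 5 measured lymphatic genes also rose, led by the hyaluronan receptor Lyve1 (0.97), the receptor Flt4 (0.89) and podoplanin, Pdpn (0.83). With the muscle covariate 3 blood endothelial genes were still called (Cdh5, Pecam1 and Eng) and 1 lymphatic gene (Flt4, 0.99), at medians of 0.45 for blood and 0.81 for lymphatic genes. Over all 85 arrays that covariate left 12 of 13 blood and 5 of 5 lymphatic genes called. Of 10 smooth muscle genes only Des was called, an intermediate filament gene that skeletal muscle also uses, while Acta2 differed by 0.04 and Myh11 by 0.13.

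Dermal matrix genes had 14 of 15 members higher and 1 lower, with a median of 0.68. Col3a1, a fibrillar collagen, ranged from 9.50 to 11.54 with a median of 10.58 in fat-rich arrays and from 8.58 to 11.05 with a median of 9.71 in fat-poor arrays and rose by 0.85 ± 0.15 (SE, adjusted p = 7.51e-05). The cross-linking enzyme Lox rose by 1.28, lumican (Lum) by 1.10 and fibronectin (Fn1) by 0.89. Postn, periostin, was the member that fell, by 0.29, and lost its call without the 5 least typical arrays. Dermatopontin (Dpt), named after its values were seen, rose by 1.58 and kept 1.61 with the muscle covariate (adjusted p = 0.0163). With that covariate none of the 15 listed genes was called in the 42 arrays, at a list median of 0.49, while over all 85 arrays 14 were called higher. The groups overlapped widely: 5 of 21 fat-rich arrays exceeded the highest fat-poor array in the mean of the list.

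Mast cell and macrophage genes were higher in fat-rich skin. Mast cell genes had 9 of 10 members higher, the same number without the 5 least typical arrays, and a median of 0.59. Cpa3, the mast cell carboxypeptidase, ranged from 6.66 to 10.10 with a median of 9.24 in fat-rich arrays and from 4.93 to 9.36 with a median of 6.66 in fat-poor arrays. It rose by 2.05 ± 0.29 (SE, adjusted p = 1.84e-06), and 8 of 21 fat-rich arrays lay above every fat-poor array. The proteases Mcpt4 and Cma1 rose by 1.63 and 0.71, and the receptor gene Mrgprb1 by 0.70. With the muscle covariate 5 mast cell genes were still called and Cpa3 kept 2.01, and over all 85 arrays 9 were called. Tpsab1 differed by -0.03 and was the member not called.

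The macrophage and dendritic cell list had 9 of 15 members higher (7 without the 5 least typical arrays, which left Itgam and Csf1r uncalled) and none lower, with a median of 0.32. Mrc1, the mannose receptor of tissue macrophages, ranged from 5.96 to 9.36 with a median of 8.01 in fat-rich arrays and from 4.88 to 8.01 with a median of 6.11 in fat-poor arrays. It rose by 1.68 ± 0.26 (SE, adjusted p = 7.82e-06) and kept 1.63 with the muscle covariate, with which 3 of the 15 were called in the 42 arrays and 15 over all 85. The complement gene C1qb rose by 1.45, lysozyme Lyz2 by 1.24 and the haemoglobin scavenger receptor Cd163 by 0.93. Antigen presentation genes of the list differed less, H2-Ab1 by 0.25 and Cd74 by 0.19, and the Langerhans cell gene Cd207 by 0.11, and none of these was called. Among genes chosen after their values were seen, the chemokine Ccl8 was higher by 1.64, the lectins Clec10a and Cd209e by 1.50 and 1.17, and Retnla by 1.45. Retnla had its highest value of all 42 arrays, 9.56, in a fat-poor array. Of 9 T cell genes only Cd4 was called (0.42), and Cd3e differed by 0.08. Of 13 interferon response genes Ifit3, Gbp2 and Ifit2 were called (0.71, 0.64 and 0.54), with Gbp2 lost without the 5 least typical arrays.

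**Figure D3:**
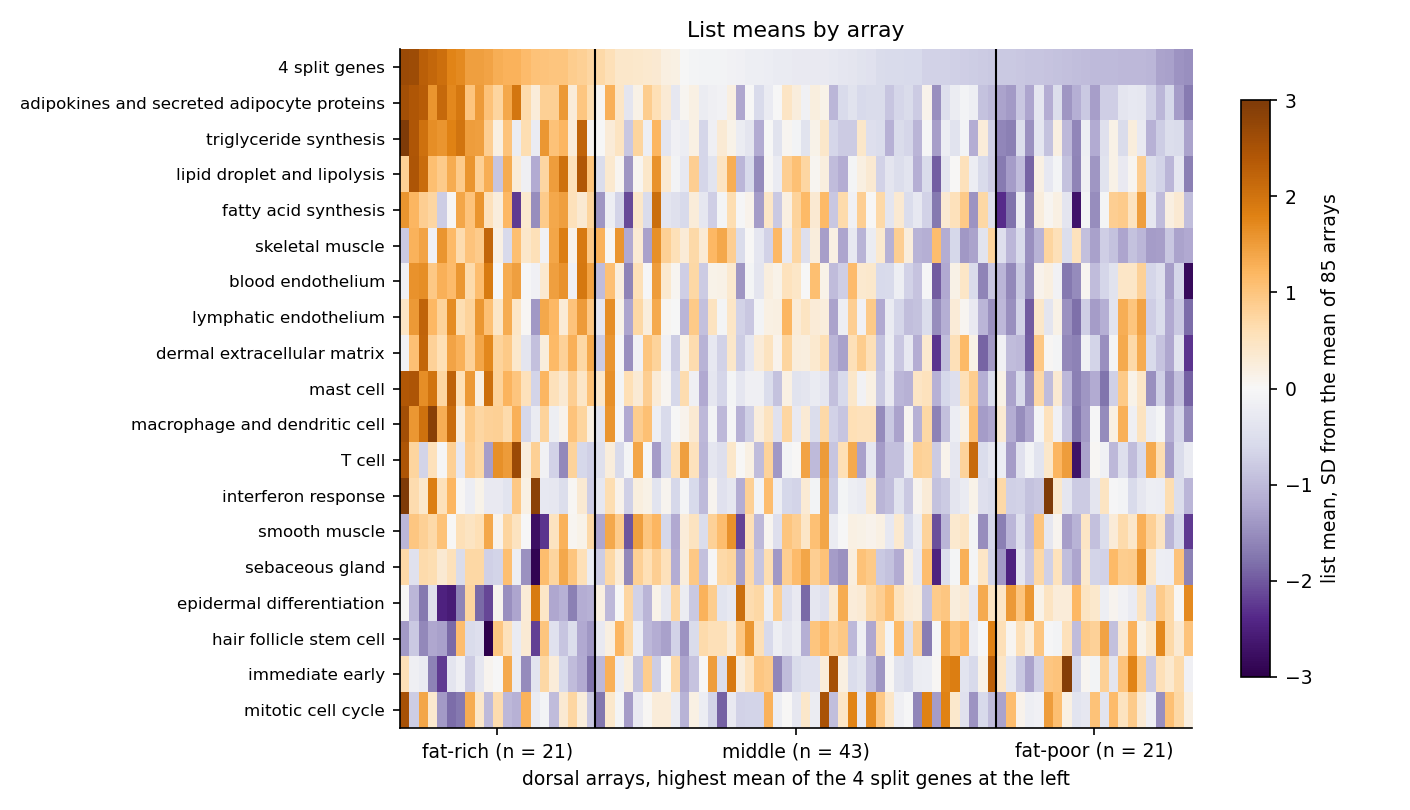
Mean of each gene list per dorsal array as SD from the mean of the 85 arrays, with arrays ordered from the highest (left) to the lowest mean of the 4 ranking genes and black lines at the edges of the fat-rich and fat-poor groups. Secreted fat cell products separate the groups in all 21 fat-rich arrays, vessel, matrix and mast cell lists are mostly high at the left, and epidermal differentiation runs the other way with 14 of 21 fat-rich arrays below every fat-poor array.

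Genes of follicle stem cells and of epidermis were lower in fat-rich skin. Of 13 hair follicle stem cell genes 9 were lower and 1 higher (8 and 1 without the 5 least typical arrays, which left Tbx1 uncalled), with a median of -0.39. With the muscle covariate none was called in the 42 arrays and the median was -0.15, while over all 85 arrays 9 were lower and 1 higher. Lhx2, a transcription factor of follicle stem cells, ranged from 7.14 to 9.68 with a median of 8.76 in fat-rich arrays and from 8.90 to 10.07 with a median of 9.54 in fat-poor arrays. Its difference was -0.79 ± 0.13 (SE, adjusted p = 2.97e-05), and 13 of 21 fat-rich arrays lay below every fat-poor array. Lgr5, a receptor of the lower bulge and hair germ, ranged from 7.23 to 9.58 with a median of 8.67 in fat-rich arrays and from 8.62 to 10.05 with a median of 9.32 in fat-poor arrays, a difference of -0.75 ± 0.14 (SE, adjusted p = 0.000198). The growth factor Fgf18, which holds follicles at rest, differed by -0.76, the related receptor Lgr6 by -0.43 and the bulge keratin Krt15 by -0.36. Tcf7l1, a repressor of Wnt target genes, was the member that rose, by 0.43. Cd34, which bulge cells share with fibroblasts and vessels, differed by 0.04.

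Epidermal differentiation had 13 of 16 members lower and none higher, with a median of -0.23. It was 9 of 16 without the 5 least typical arrays and 6 of 16 under quantile normalization of all arrays. With the muscle covariate 1 (Spink5) was lower in the 42 arrays, at a median of -0.16, and 12 over all 85. The protease Casp14 differed by -0.47 (medians 9.34 in fat-rich and 9.89 in fat-poor arrays) and corneodesmosin, Cdsn, by -0.33. The keratins Krt1 and Krt10 differed by -0.31 and -0.17, and the basal keratins Krt5 and Krt14 by -0.23 and -0.19, the last lost without those arrays. Tgm3 differed by -0.34 and was not called. Other follicle keratin genes gave a mixed picture. Krt75, of the companion layer around the hair shaft, ranged from 8.79 to 10.93 with a median of 9.34 in fat-rich arrays and from 9.64 to 11.12 with a median of 10.29 in fat-poor arrays, a called difference of -0.74, whereas none of 8 hair shaft keratins was called and Gata3 (-0.38) was the only one called of 11 inner root sheath genes. Krt71, Krt25 and Krt27, markers of growing follicles, had medians of 4.88 to 5.29 in the 2 groups, below the median of all gene levels (6.49), with differences of 0.07, -0.07 and -0.06.

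Other members of the 20 largest decreases were Ano7 (-0.91), Pdzrn4 (-0.79), Ifitm6 (-0.79), the matrix protein Ccn2 (-0.76), the keratin Krt24 (-0.74), Thsd1 (-0.71), the interleukin 31 receptor Il31ra (-0.68), the cell adhesion gene Sdk2 (-0.65), the teneurin Tenm2 (-0.65), the epidermal lipoxygenase Alox12 (-0.64), Bicdl2 (-0.64) and 2 transcripts of unassigned role, B130006D01Rik (-0.71) and 4930412O13Rik (-0.68). Sdk2 had the smallest adjusted p of them, 9.48e-06. With the muscle covariate none of the 20 was called.

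Among signals of the dermis that act on the hair cycle, 2 of 12 were higher and 3 lower. Bmp2, which dermal fat cells make and which holds follicles at rest, fell by 0.59 to a median of 8.37 in fat-rich arrays, against 8.99 in fat-poor arrays. Bmp6 fell by 0.45 and Pdgfa, a growth factor of immature fat cells in mice, by 0.21, the last not called without the 5 least typical arrays. The Wnt antagonist Sfrp4 rose by 0.72 and Hgf by 0.50. Bmp4, another BMP ligand, had a difference of 0.00 and was not called.

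Immediate early genes, which respond to handling and injury, had 4 of 15 members lower (Fos -0.72, Dusp1 -0.40, Egr1 -0.32 and Egr3 -0.27), and none of the 4 was called without the 5 least typical arrays. No member was called among 14 sebaceous gland, 18 mitotic cell cycle, 13 circadian clock and 2 blood genes. The largest differences there were 0.20 for Plin2, -0.26 for Rrm2, -0.36 for Per1 and 0.19 for Slc4a1. Of 11 cholesterol synthesis genes Fdps was lower (-0.22), of 4 Schwann cell and myelin genes Pmp22 was higher (0.41), and of 9 housekeeping genes Gapdh was higher (0.21) and Ywhaz lower (-0.17). Fdps, Gapdh and Ywhaz lost the call without those 5 arrays.

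**Figure D4:**
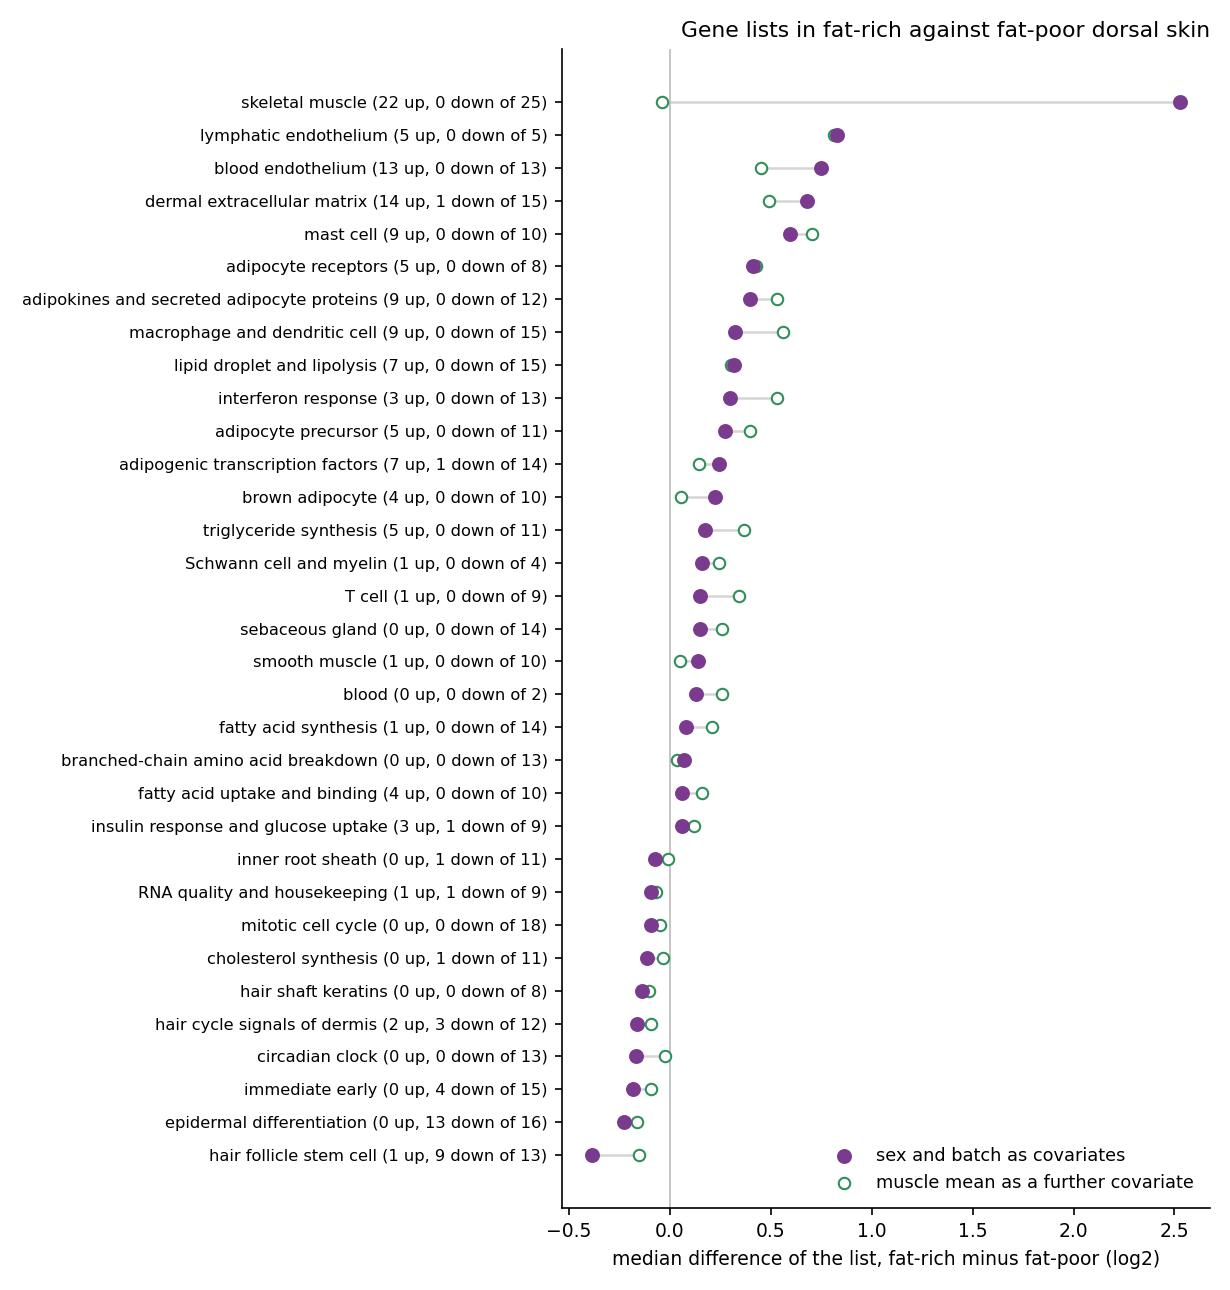
Median log2 difference, fat-rich minus fat-poor, of each gene list with sex and batch as covariates (filled) and with the muscle mean added (open), with the number of called members beside each name. The muscle list has a median of -0.04 with its own mean as covariate, against 2.53 without it. Every other list with a median above 0 stays above 0 with the muscle mean added. Examples are blood endothelium (0.75, then 0.45), mast cell (0.59, then 0.71), sebaceous gland (0.15, then 0.26) and T cell (0.15, then 0.34).

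MicroRNAs are short RNAs that repress target transcripts. Of 306 miRNA genes measured, 19 were lower and 2 higher (Mir675 and Mir485), shares below those over all genes (10.6% and 8.58%), with a median of 0.00. The probe sets read the transcript annotated to each miRNA gene, and the mature miRNA was not measured. Mature sequences from RefSeq (GRCm38.p6) were found for 20 of the 21, and those below are of called genes that share a genomic cluster or a seed, the bases 2 to 8 that pair with targets, shown in capitals, together with the epithelial miR-205-5p, which shares neither.
miR-27b-3p: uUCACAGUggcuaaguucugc
miR-27a-3p: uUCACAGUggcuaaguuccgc
miR-24-3p: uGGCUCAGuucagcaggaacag
miR-23a-3p: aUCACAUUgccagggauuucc
miR-200a-3p: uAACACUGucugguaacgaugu
miR-200b-3p: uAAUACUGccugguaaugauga
miR-200c-3p: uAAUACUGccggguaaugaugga
miR-205-5p: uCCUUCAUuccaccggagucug
The genes Mir23b, Mir27b and Mir24-1 lie within 792 bases at chr13:63300484-63301275 and differed by -0.60, -0.63 and -0.71. Mir23b ranged from 7.23 to 9.12 with a median of 8.27 in fat-rich arrays and from 8.33 to 9.65 with a median of 8.77 in fat-poor arrays, and 13 of 21 fat-rich arrays lay below every fat-poor array. Mir23a and Mir27a, at chr8:84208518-84208758, differed by -0.41 and -0.58, and Mir24-2 of the same cluster by -0.24, which was not called (adjusted p = 0.154). The seed UCACAGU is common to miR-27a-3p and miR-27b-3p, so both clusters carry it.

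Some members of the miR-200 family, known for its role in epithelial cells, were called lower in fat-rich skin, at 2 loci. They were picked from the 19 miRNA genes called lower, whose share was below that over all genes. The 19 also included Mir140 (-0.82), Mir103-2 (-0.53) and Mir17 (-0.45), which belong to neither the clusters nor the family described here. Mir200a and Mir200b, within 855 bases at chr4:156054896-156055750, differed by -0.40 and -0.65, and Mir200c on chromosome 6 by -0.28. Mir141, of the same family, differed by -0.03 and was not called. Mir200b ranged from 4.97 to 7.26 with a median of 6.23 in fat-rich arrays and from 6.26 to 7.43 with a median of 6.96 in fat-poor arrays (adjusted p = 0.00115). The seed AAUACUG is shared by miR-200b-3p and miR-200c-3p. Mir205, another epithelial miRNA gene, differed by -0.50. Mir23a, Mir200c and Mir205 were not called without the 5 least typical arrays. Mir675, which lies within the imprinted H19 transcript, rose by 1.19 and was at -0.12 with the muscle covariate. With that covariate Mir196a-1 (-1.10, adjusted p = 0.00568) was the only miRNA gene called.

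The comparison was repeated within each sex. With 9 females per group 837 genes were higher (4.45%) and 221 lower (1.17%), and with 12 males per group 647 were higher (3.44%) and 639 lower (3.4%). The difference of the effect between females and males was called for 0 genes in either direction (0% of 18816, limma interaction, smallest adjusted p = 0.255, with 1001 genes at an unadjusted p under 0.05). Retn differed by 3.31 in females and 2.90 in males, and Myh1 by 3.22 in females and 4.05 in males.

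Tail skin of the same mice showed no detectable difference of this kind. The mean of the 4 ranking genes was 6.26 ± 0.59 in tails of mice with fat-rich dorsal skin and 6.43 ± 0.81 in tails of mice with fat-poor dorsal skin (SD, n = 21 each). The difference of -0.17, with a 95% confidence interval of -0.615 to 0.271, gave p = 0.436 (permutation test, 2-sided, 100000 resamples). Over the 82 mice with both arrays the dorsal and tail means correlated at Pearson r = -0.058 (permutation p = 0.604) and Spearman rho = -0.042 (permutation p = 0.709), and at r = -0.0520 without the 2 mice farthest from the dorsal median. Within females r was -0.217 (permutation p = 0.185, n = 39) and within males 0.0739 (permutation p = 0.636, n = 43). Over the 10 correlations computed, the Benjamini-Hochberg adjusted p was 0.647 or higher. The tail difference was -0.62 in females (exact permutation p = 0.0769, n = 9 each) and 0.16 in males (permutation p = 0.475, n = 12 each). No gene of 18820 was called in the tails in either direction (0%, limma, smallest adjusted p = 1), and 257 had an unadjusted p under 0.05.

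Retn averaged 7.97 ± 0.74 in tails of mice with fat-rich dorsal skin and 8.05 ± 1.04 in tails of mice with fat-poor dorsal skin (SD, n = 21 each), a difference of -0.07 ± 0.25 (SE). Car3, at -0.02, and Myh1, at -0.01, had tail differences near 0, and Lgr5 was at 0.08. The genes called higher in dorsal skin had a median tail difference of -0.03 and those called lower of 0.00. Within mice, the dorsal difference exceeded the tail difference for 1216 genes (6.46%) and fell below it for 1064 (5.65%), and with each array shifted to the same median the counts were 1099 and 2806. Its dorsal side is the contrast that the ranking made, so its size follows in part from the choice of arrays. Dorsal and tail arrays were run in different batches, and batch and tissue cannot be told apart in levels, although the contrast lies within each tissue.

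**Figure D5:**
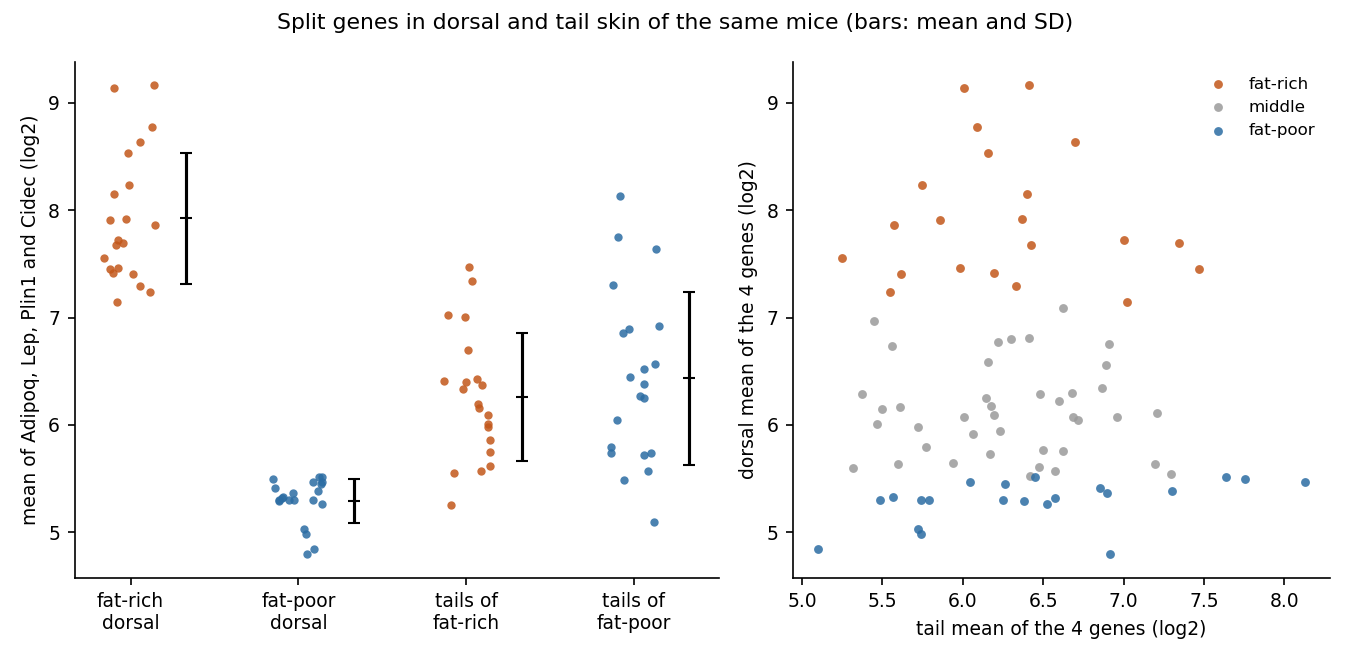
Left, mean log2 value of Adipoq, Lep, Plin1 and Cidec per array in fat-rich and fat-poor dorsal skin and in the tails of the same mice (21 per group, bars show mean and SD). Right, the dorsal against the tail mean in 82 mice, where the dorsal groups lie apart by construction and their tails overlap.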

How the data were processed

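Log2 expression values were used as deposited. They were made by the authors with RMA, per the submitters' processing notes, from arrays of 35556 probe sets, of which 21218 named a single gene, 1881 several and 12457 none. The highest-mean probe set stood for each of 18820 genes. In R 4.3.3, limma 3.58.1 compared the dorsal groups on these values, allowing for sex and batch, with p-values adjusted by Benjamini-Hochberg over 18816 genes without the 4 ranking genes, and genes called under 0.05. Tails were fitted alike, dorsal minus tail values within each mouse gave the paired test, and permutation tests used 100000 resamples. Members and gene lists were chosen with earlier results of these data known. Named genes were the 20 largest called differences each way above the median gene level (6.49), the 4 largest of each list and the 5 largest dorsal against tail. List members beyond these, and genes of no list, were picked after their values were seen. The number of arrays limits the precision, and mice are the replicates. The fits were tested on simulated data.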

Additional observations from a re-analysis of the deposited data

Results flagged for a closer look

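The dorsal and tail effects differed within mice (limma on dorsal minus tail values, adjusted p under 0.05) for 1216 genes with the larger effect in dorsal skin and 1064 with the lower, and 4683 genes had an unadjusted p under 0.05. The dorsal side of each difference is the contrast made by the ranking. The 5 largest positive differences of effect were those of 4 fast muscle genes and Car3: Myh1 (3.84), Myl1 (3.50), Atp2a1 (3.37), Car3 (3.29) and Tnnt3 (3.25). The 5 largest negative ones were Krt75 (-0.89), Pdzrn4 (-0.86), Lhx2 (-0.83), Lgr5 (-0.83) and 4930412O13Rik (-0.73).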

How the results depend on the processing

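Direction held for most results, and counts moved more. Against 1614 genes higher and 1993 lower, shifting each array to the same median gave 3195 lower and the slope over all 85 arrays 3337 lower. The slope over the 43 middle arrays gave 30 higher and 4 lower. A filter on low values tested only genes above the median level of dorsal arrays. From these fewer genes it gave 851 higher and 2103 lower, and all 96 named and called genes that passed it kept the call. Females alone gave 837 and 221 and males alone 647 and 639, from fewer samples. The muscle covariate gave 153 and 17, and leaving out the 5 least typical arrays 946 lower; that setting and the slope over 85 arrays with the muscle covariate were chosen after seeing the data. Calls were 44.7% higher, against 31.2% with the shift and 47.9% with quantile normalization. The arrays were ranked again after either scaling, and quantile normalization kept 20 of 21 fat-rich and 19 of 21 fat-poor arrays. The shift also gave 2806 genes lower in the dorsal against tail comparison. With mouse as a random replicate block in 1 fit of both tissues the counts were 1258 higher and 1150 lower. Of 138 named and called genes, 41 kept the call with the muscle covariate, 88 lost it and 9 reversed in sign. None of these 9 was called in the reversed direction (limma, adjusted p of 0.528 or higher). They were Pvalb (-0.26), Ttn (-0.082), Casq1 (-0.12), Apobec2 (-0.19), Myh4 (-0.69), Fitm1 (-0.28), Cox8b (-0.25), Gapdh (-0.094) and Mir675 (-0.12). With the muscle covariate over 85 arrays, Atp2a1 (-0.012), Tnnt3 (-0.040), Pvalb (-0.045), Tnnc2 (-0.021), Acta1 (-0.039), Ttn (-0.14) and Myh4 (-0.17) reversed in sign. Of these only Ttn was called (limma, adjusted p = 0.0275), and the others had an adjusted p of 0.321 or higher. The covariate is the mean of a list that holds every gene reversed over 85 arrays. Mir200a reversed in sign in the middle arrays (0.0030, limma, adjusted p = 0.995). In males the tail difference was 0.16 and the dorsal to tail correlation 0.074, and within batches 1 and 4 it was 0.014, against -0.17 and -0.058 over all mice. The cause was not tested where none is given.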
